A study of Mus musculus with 4 samples.

Results

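The genes described here are the 10 mouse genes *Trim28*, *Setdb1*, *Suv39h1*, *Suv39h2*, *Ehmt1*, *Ehmt2*, *Cbx1*, *Cbx3*, *Cbx5* and *Hells*, which encode proteins that write, bind or help to build chromatin methylated on lysine 9 of histone H3 (H3K9). They were taken by symbol in GENCODE mouse M21 from 55573 counted genes, and all 10 were among the 16832 genes that passed the filter on low counts. The sequenced RNA came from tdTomato-positive cells, sorted by fluorescence at embryonic day 16 (E16, with the day of insemination as E1). The tissue is the preoptic area (POA) in the paper and the basal telencephalon in the sample labels. Both genotypes carried the *Hmx3-Cre* driver and the *tdTomato* reporter, so that the sort was aimed at cells with a history of *Hmx3* promoter activity. Its purity was not tested. Every library held reads of the microglia marker *Csf1r*, from 76 to 220. The control embryos (WT) had wild-type *Dnmt1*. In the KO embryos, *Dnmt1 loxP2* alleles with loxP sites around exons 4 and 5 were recombined by the same Cre, which gives a null allele of the maintenance DNA methyltransferase. Cells of 12 WT and 6 KO embryos were pooled, and 2 libraries were made per genotype, which the labels call biological replicates and the paper calls technical duplicates. The SDs and p-values below therefore measure the spread between libraries, which may be technical. The comparison asks whether the RNA of the H3K9 methylation machinery differed between *Dnmt1*-deficient and control cells.

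Methylated H3K9 is a mark of silenced chromatin. Histone methyltransferases write it, heterochromatin protein 1 (HP1) proteins bind it through their chromodomain and recruit further methyltransferases, and the mark can spread in this way along repeats and around centromeres. The system is coupled to DNA methylation, since UHRF1, the partner that brings DNMT1 to replicated DNA, also binds methylated H3K9, and in neural progenitors the TRIM28 and SETDB1 pair is known for the silencing of endogenous retroviruses.

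DNMT1 copies methylation at CpG dinucleotides, so the CpG content of the genes' own start regions is shown first. The RefSeq promoter windows (GRCm38.p6, 250 bases before to 50 after a start) held 14 windows for the 10 genes. Their median was 30.5 CpG per window against 7 over all 32841 windows, and their median observed-to-expected CpG ratio was 0.83 against 0.38. The set of all windows was not limited to genes counted in these cells. The windows held 8 CpG, at the downstream start of *Cbx5*, to 40 CpG, at a start of *Ehmt2*. The upstream bases of 4 genes are printed, in lower case with each CG in capitals. *Suv39h2* and *Cbx1* had intervals of the genotype difference that excluded equal levels, *Cbx5* was the most abundant HP1 gene, and *Hells* differed most between libraries of a genotype. The interval of *Cbx3* also excluded equal levels, but its upstream stretch free of exons is short and is not printed. The *Suv39h2* stretch lies at chr2:3475032-3475236 on the minus strand, that of *Cbx1* at chr11:96788885-96789126 on the plus strand, that of *Cbx5* at chr15:103239853-103240102 on the minus strand, and that of *Hells* at chr19:38930740-38930914 on the plus strand. All end before the first annotated exon and are written 5′ to 3′ on the strand of the gene.
Suv39h2: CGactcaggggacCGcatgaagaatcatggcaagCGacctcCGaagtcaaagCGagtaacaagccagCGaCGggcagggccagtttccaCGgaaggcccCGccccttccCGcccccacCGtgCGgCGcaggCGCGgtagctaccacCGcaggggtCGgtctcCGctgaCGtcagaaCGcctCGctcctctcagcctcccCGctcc
Cbx1: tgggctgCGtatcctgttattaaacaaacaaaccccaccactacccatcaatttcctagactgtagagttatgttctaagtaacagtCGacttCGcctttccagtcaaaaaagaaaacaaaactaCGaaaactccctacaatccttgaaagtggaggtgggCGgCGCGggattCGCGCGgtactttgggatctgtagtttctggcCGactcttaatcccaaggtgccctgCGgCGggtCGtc
Cbx5: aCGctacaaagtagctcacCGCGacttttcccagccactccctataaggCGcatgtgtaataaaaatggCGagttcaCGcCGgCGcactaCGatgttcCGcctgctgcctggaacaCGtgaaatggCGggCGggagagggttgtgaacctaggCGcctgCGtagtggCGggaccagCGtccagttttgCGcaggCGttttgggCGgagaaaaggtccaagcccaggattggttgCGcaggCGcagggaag
Hells: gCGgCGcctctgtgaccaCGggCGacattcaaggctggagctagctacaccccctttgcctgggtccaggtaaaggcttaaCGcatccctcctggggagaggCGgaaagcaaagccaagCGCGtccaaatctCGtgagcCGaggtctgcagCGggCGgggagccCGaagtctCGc
These stretches held 22, 14, 22 and 14 CpG. No member window contained the TATA box letters TATAAA on either strand, against 13.6% of all windows. The Sp1 core GGGCGG was present in 13 of 14 windows and in all 10 genes, against 35.7% of all windows. The E2F core GGCGGGAA, which can share letters with an Sp1 core, was found in the windows of *Trim28* and *Suv39h2* only among the members, against 2.2% of all windows. The *Suv39h2* match lies on the opposite strand and appears in the stretch above as ttccCGcc. A letter match describes the window and no more, and DNA methylation was not analysed here.

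The libraries held 8075102 to 9995968 counts, so that 3 counts corresponded to 0.294 to 0.372 CPM (counts relative to the TMM-scaled library size). WT replicate 1 stood apart with 8.66% of its counts in mitochondrial rRNA, against 1.51% to 2.32% in the other libraries. The WT libraries also differed more from each other (chi-square per degree of freedom 39.8) than the KO libraries did (3.54). The targeted gene *Dnmt1* was at 385 and 446.5 CPM in WT and at 283 and 281 CPM in KO, with a fitted log2 difference of -0.56 (SE 0.14, edgeR adjusted p = 0.0511). Its RNA was lower in both KO libraries and remained present. *Dnmt1* passed the threshold with DESeq2 (adjusted p = 0.00843), and not with edgeR on library size only (adjusted p = 0.151). Of all genes tested with edgeR's quasi-likelihood test, 1329 (7.9%) had an adjusted p under 0.05, 1233 (7.33%) higher and 96 (0.57%) lower in KO. Without WT replicate 1 there were 3878 such genes, 2578 higher and 1300 lower. Without WT replicate 2 there were 4209, 2029 higher and 2180 lower, so that the excess of higher genes was not seen in that fit.

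All 10 genes had lower fitted levels in KO, by amounts that ranged from almost nothing for *Ehmt2* to a log2 fold change of -0.71 for *Suv39h2*, but none passed the adjusted threshold with edgeR or with DESeq2, and with library size as the only scaling *Ehmt2* and *Suv39h1* were slightly above 0. Their median log2 fold change was -0.30, against -0.03 over all genes tested. With the length and GC correction these medians were -0.18 and 0.001, and *Hells* was above 0. At an unadjusted p under 0.05 there were 3 of 10 with edgeR, *Suv39h2*, *Cbx1* and *Cbx3*, all lower in KO. With DESeq2 there were also 3 of 10, *Cbx1*, *Cbx3* and *Cbx5*, against 18.9% of all genes. The number was 0 with library size as the only scaling (3556 of 16832 genes overall), 3 with the length and GC correction (*Trim28*, *Ehmt1* and *Cbx1*, with 5164 of 16822 genes overall) and 5 without a filter (4960 of 30006 genes overall). Over all genes the edgeR share at that level, as first fitted with TMM scaling, was 22.7% in either direction and 8.01% in the lower direction. In 6 of the 10 genes each KO library was below each WT library, which was the case for 25.2% of all genes tested. With library size as the only scaling these were 4 of the 10, *Trim28* and *Ehmt1* no longer among them, against 15.6% of all genes. Since the RNA came from many cells together, fewer cells that express a gene and less RNA per cell cannot be told apart.

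**Figure D1:**
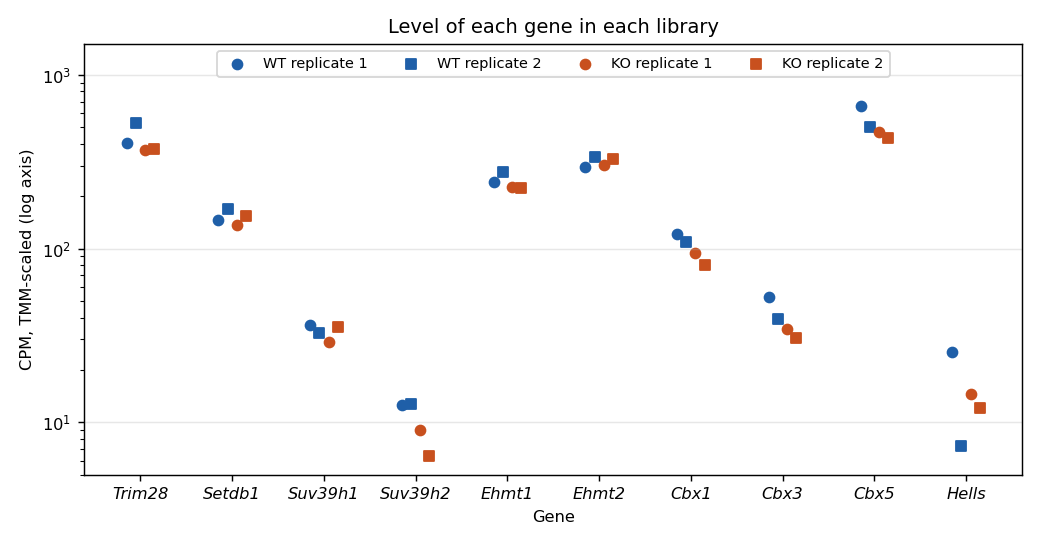
CPM of the 10 genes in each of the 4 libraries, on a log axis, with WT in blue and KO in orange and the replicate number given by the symbol. *Suv39h2*, *Cbx1*, *Cbx3*, *Cbx5*, *Trim28* and *Ehmt1* have both KO libraries below both WT libraries, and the WT libraries of *Hells*, at 25.4 and 7.35 CPM, lie on either side of the KO libraries.

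**Figure D2:**
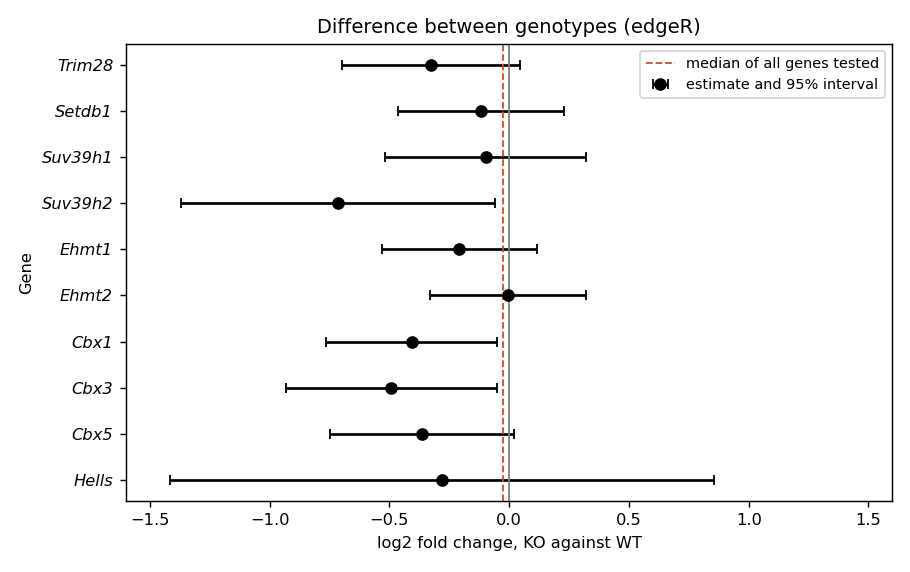
Log2 fold change of each gene between KO and WT from edgeR, with the 95% confidence interval as a bar and the median of all genes tested, -0.03, as a dashed line. The intervals of *Suv39h2*, *Cbx1* and *Cbx3* lie below 0 and those of the other 7 genes include it.

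*Trim28* (ENSMUSG00000005566, chr7:12999114-13031035 of GRCm38, plus strand) encodes the corepressor that KRAB zinc finger proteins bind and that brings SETDB1 and HP1 to their targets. It was at 405 and 526 CPM in WT and at 367 and 376 CPM in KO. The WT libraries differed from each other by more than the lower of them differed from KO. The log2 fold change was -0.33 (SE 0.16, edgeR adjusted p = 0.274), and the 95% interval of the KO level reached from 0.617 to 1.03 of WT. The gene passed the threshold with trends of gene length and GC content removed (-0.37, edgeR adjusted p = 0.0164). In that fit 2899 of 16822 genes were called. Without WT replicate 1 the log2 fold change was -0.51, and without WT replicate 2 it was -0.14. *Setdb1* (ENSMUSG00000015697, chr3:95323525-95357202 of GRCm38, minus strand), the methyltransferase that TRIM28 recruits and that trimethylates H3K9, was at 145 and 169 CPM in WT and at 137 and 153 CPM in KO. The groups overlapped, with KO replicate 2 between the WT libraries. Its log2 fold change was -0.12 (SE 0.15, edgeR adjusted p = 0.689), with a KO level from 0.725 to 1.17 of WT. With a library left out the estimate ranged from -0.229 to -0.0146. A short stretch of the *Setdb1* exons, 1.09% and 3.63% of their bases, is shared with *Cers2* and Gm37500 on the opposite strand.

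*Suv39h1* (ENSMUSG00000039231, chrX:8061171-8074760 of GRCm38, minus strand) and *Suv39h2* (ENSMUSG00000026646, chr2:3455815-3475031 of GRCm38, minus strand) encode the paired methyltransferases that trimethylate H3K9 at pericentromeric repeats, and their values differed in pattern. For *Suv39h1*, the WT libraries held 294 and 333 counts and the KO libraries 243 and 323, or 36.5 and 32.6 CPM against 28.9 and 35.6 CPM. KO replicate 2 lay between the WT libraries, and the log2 fold change was -0.10 (SE 0.18, edgeR adjusted p = 0.793; KO level 0.699 to 1.25 of WT). The estimate was slightly above 0 with library size as the only scaling (0.015) and without KO replicate 1 (0.056). *Suv39h2* had few counts, 101 and 130 for WT and 76 and 58 for KO. Its WT libraries were almost equal at 12.5 and 12.7 CPM, and the KO libraries were at 9.035 and 6.388 CPM. Mean levels were 12.6 ± 0.142 CPM for WT and 7.71 ± 1.87 CPM for KO (SD, n = 2 each), and the gap between the groups was wider than the gap within either. Its log2 fold change of -0.71 (SE 0.29, edgeR adjusted p = 0.188) was the most negative of the 10, and the KO level lay between 0.387 and 0.961 of WT. It stayed negative under every alternative, from -0.97 to -0.48, and passed the adjusted threshold in none. Exonic length joins the exons of all annotated transcripts of a gene and can exceed that of the transcripts made. Per exonic length, *Suv39h2* made up 29.1% and 31.8% of the SUV39H pair in WT and 27.2% and 17.7% in KO. Most of this pair's RNA was thus *Suv39h1* in all libraries. Of the *Suv39h2* exons 8.1% overlap *Dclre1c* on the opposite strand, which had 137 to 164 counts, and of the *Suv39h1* exons 14.6% overlap Gm14820, which had 3 to 6 counts.

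*Ehmt1* (GLP) (ENSMUSG00000036893, chr2:24789928-24919614 of GRCm38, minus strand) and *Ehmt2* (G9a) (ENSMUSG00000013787, chr17:34898469-34914052 of GRCm38, plus strand) encode the heterodimer that places most mono- and dimethylation of H3K9 in gene-rich chromatin. *Ehmt1* was at 241 and 277 CPM in WT and at 225 and 223 CPM in KO. Both KO libraries were below both WT libraries and close to each other, and the log2 fold change was -0.21 (SE 0.14, edgeR adjusted p = 0.422; KO level 0.691 to 1.08 of WT). The estimate was -0.104 with library size only, and ranged from -0.3136 to -0.114 with a library left out. *Ehmt2* was at 294 and 336 CPM in WT and at 302 and 326 CPM in KO. Both KO libraries fell inside the WT range. Its log2 fold change was -0.0042 (SE 0.14, edgeR adjusted p = 0.992) with a KO level from 0.796 to 1.25 of WT, the estimate of the 10 that was nearest to no difference. Per exonic length *Ehmt2* made up 64.4% and 64.2% of the pair in WT and 66.5% and 68.4% in KO.

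The 3 HP1 genes all had both KO libraries below both WT libraries, an order found in 25.2% of all genes tested. They are *Cbx1* (ENSMUSG00000018666, chr11:96789127-96808640 of GRCm38, plus strand), *Cbx3* (ENSMUSG00000029836, chr6:51470360-51483704 of GRCm38, plus strand) and *Cbx5* (ENSMUSG00000009575, chr15:103191544-103239816 of GRCm38, minus strand). HP1 proteins read methylated H3K9 and bring in further silencing factors. *Cbx1* (HP1 beta) was at 121 and 109.5 CPM in WT and at 93.7 and 79.96 CPM in KO, and its log2 fold change was -0.41 (SE 0.15, edgeR adjusted p = 0.166; KO level 0.589 to 0.965 of WT). *Cbx3* (HP1 gamma), which is also found in transcribed genes, was at 52.4 and 39.5 CPM in WT and at 34.6 and 30.6 CPM in KO. Its log2 fold change was -0.49 (SE 0.19, edgeR adjusted p = 0.176; KO level 0.524 to 0.964 of WT). *Cbx5* (HP1 alpha), the form most closely tied to pericentromeric heterochromatin, was at 658 and 500.5 CPM in WT and at 466 and 433 CPM in KO, and its log2 fold change was -0.36 (SE 0.17, edgeR adjusted p = 0.24; KO level 0.595 to 1.01 of WT). In each of the 3 genes WT replicate 1 was the higher WT library. Without WT replicate 2 the estimates were -0.49 for *Cbx1*, -0.70 for *Cbx3* and -0.56 for *Cbx5*. Without WT replicate 1 they were -0.34, -0.28 and -0.16. With the length and GC correction the estimates were -0.30 for *Cbx1*, -0.21 for *Cbx3* and -0.15 for *Cbx5*. Per exonic length the mix of the 3 forms was similar in all libraries. *Cbx5* made up 63.3% to 66.9%, *Cbx1* 25.7% to 29.2% and *Cbx3* 7.1% to 7.95% of their sum. These shares rest on joined exons of 4273 bases for *Cbx1*, 5992 for *Cbx3* and 9006 for *Cbx5*. The level of *Cbx3* is uncertain, because 19 annotated genes, most of them processed pseudogenes, match its transcripts with at least 90% identity over at least 200 bases, up to 99.8%. Each of these had at most 3 counts in any library, and how reads with several matches were counted is not given in the sources used here.

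*Hells* (ENSMUSG00000025001, chr19:38930915-38971051 of GRCm38, plus strand), a SNF2-type remodeller (LSH) that is needed for the DNA methylation of repeats and is high in dividing cells, was the least reproducible of the 10. The WT libraries held 205 and 75 counts and the KO libraries 123 and 110, or 25.4 and 7.35 CPM against 14.6 and 12.1 CPM. Both KO values fell between those of WT. The log2 fold change was -0.28 (SE 0.49, edgeR adjusted p = 0.782), and the KO level reached from 0.375 to 1.81 of WT, so that neither a lower nor a higher level was detectable. The direction turned with the WT library used. Without WT replicate 1 the log2 fold change was 0.85, and without WT replicate 2 it was -0.94. With the correction for length and GC content it was 0.15. The summed level of 15 genes of cycling cells was 765 and 761 CPM for WT and 746 CPM for each KO library. Single genes of that list varied in either direction between the WT libraries, with *Bub1* at 15.1 and 8.03 CPM and *Mcm3* at 18.9 and 27.3 CPM, and the part of cycling cells in the *Hells* values was not tested.

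The spread between libraries of a genotype differed from gene to gene. WT replicate 1 over WT replicate 2 was 3.46 for *Hells* (exact binomial 95% interval 2.65 to 4.57, counting error only), 1.33 for *Cbx3* (1.15 to 1.52) and 1.31 for *Cbx5* (1.26 to 1.37). It was below 1 for *Trim28* at 0.771 (0.738 to 0.805), *Setdb1* at 0.86, *Ehmt1* at 0.869 and *Ehmt2* at 0.876 (0.831 to 0.924). These gaps went beyond counting error. The transcripts of *Hells*, *Cbx3* and *Cbx5* had a GC content of 39.9%, 40.9% and 43.2%, and those of *Trim28* 55.2%. The order was not strict. *Suv39h2* had 42.3% GC and a ratio of 0.984, and *Suv39h1* had 50.3% GC and a ratio of 1.12. *Ehmt2* had the highest GC content of the 10, 59.8%, but not the lowest ratio. Spearman's rho between this ratio and GC content was -0.77 over the 10 genes and -0.53 over the 16822 genes with a GC value, and for KO replicate 1 over KO replicate 2 it was -0.733 and -0.316. These correlations run across genes of the same libraries, which are not independent. The part of base composition in the genotype differences was not tested beyond the correction above, under which the median of the 10 genes was -0.18.

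**Figure D3:**
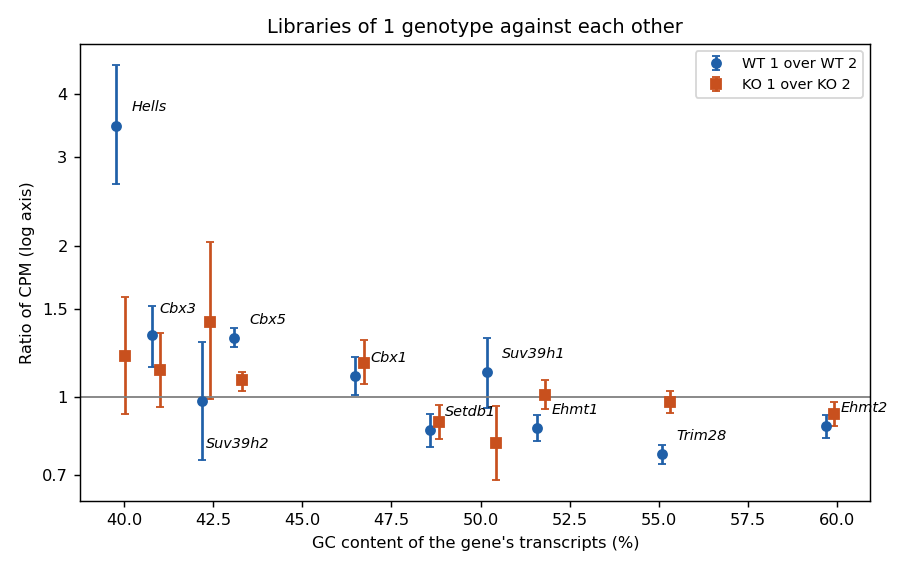
Ratio of CPM between the libraries of a genotype for each gene, on a log axis, against the GC content of its transcripts in percent, with exact binomial 95% intervals for counting error. For WT in blue the ratio runs from 3.46 for *Hells* at 39.9% GC to 0.771 for *Trim28* at 55.2% GC. The KO ratios in orange span 0.812 to 1.41.

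Per kilobase of joined exons, *Trim28* had the highest level, with a mean of 112 CPM per kb in WT and 89.3 in KO. *Cbx5* followed with 64.3 and 49.9 CPM per kb, then *Ehmt2* with 57.4 and 57.2. *Ehmt1*, *Cbx1* and *Setdb1* formed a middle group, at 31.9, 26.9 and 22.9 CPM per kb in WT. *Cbx3*, *Suv39h1*, *Suv39h2* and *Hells* were at 7.67, 6.56, 2.87 and 2.28 CPM per kb in WT. Transcripts of all writers and readers of the list were thus counted in both genotypes.

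Beyond the 10 genes, a list of 43 further genes of H3K9 methylation and heterochromatin was read from the same fit. Of 40 tested, 1 was called, *Prdm16*, a PRDM-family gene of neural stem cells and glia that has been described as an H3K9 methyltransferase. It rose in KO, from 298 and 301 to 465 and 589 counts (log2 fold change 0.86, SE 0.18, edgeR adjusted p = 0.0235). Both KO libraries were above both WT libraries. Without KO replicate 2 its log2 fold change was 0.74 and the call was lost (adjusted p = 0.211). The list's median log2 fold change was -0.05, with 18 genes above 0 and 22 below. Next to *Prdm16*, the largest values upwards were *Kmt5c*, an H4K20 methyltransferase (0.48, adjusted p = 0.093), and *Chaf1a*, a subunit of the replication-coupled histone chaperone (0.39, adjusted p = 0.333). The largest downwards were *Lrif1*, an HP1 partner (-0.92, adjusted p = 0.166), the demethylase gene *Kdm7a* (-0.58, adjusted p = 0.235) and *Tasor*, a subunit of the HUSH silencing complex (-0.58, adjusted p = 0.22). These adjusted p values are from edgeR and did not pass the threshold. Without a filter *Lrif1*, *Kdm7a* and *Tasor* were called lower, as were 573 of 30006 genes over the whole table. *Kmt5c* and *Lrif1* were called with the replicate block (2244 of 16832 genes), and *Kmt5c* with the length and GC correction (2899 of 16822 genes). Without WT replicate 2 there were 11 calls in the list, 9 of them lower in KO, *Tasor*, *Lrif1* and *Kdm7a* included, where 4209 of 18100 genes were called over the whole table. Without WT replicate 1 there were 2 calls in the list, 1 of them lower.

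By group, 1 of 7 tested methyltransferases and partners was called, and 0 of 10 demethylases, 0 of 5 HUSH and MORC genes and 0 of 18 assembly genes were called with edgeR. At an unadjusted p under 0.05 these 3 groups held 0, 1 and 3 genes. Over all genes tested the shares were 7.9% called and 22.7% at an unadjusted p under 0.05. Their median log2 fold changes were -0.03, -0.20 and -0.11. All 5 HUSH and MORC genes had values below 0, as had 8813 of all 16832 genes, but 2 of the 5 were above 0 with the length and GC correction, 1 with library size only and 1 with at least 10 counts in every library. *Uhrf1*, the link between methylated H3K9 and DNMT1, was at 0.19 on the log2 scale (edgeR adjusted p = 0.578), its KO values both higher than its WT values, and its relative *Uhrf2* at -0.35 (adjusted p = 0.2).

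**Figure D4:**
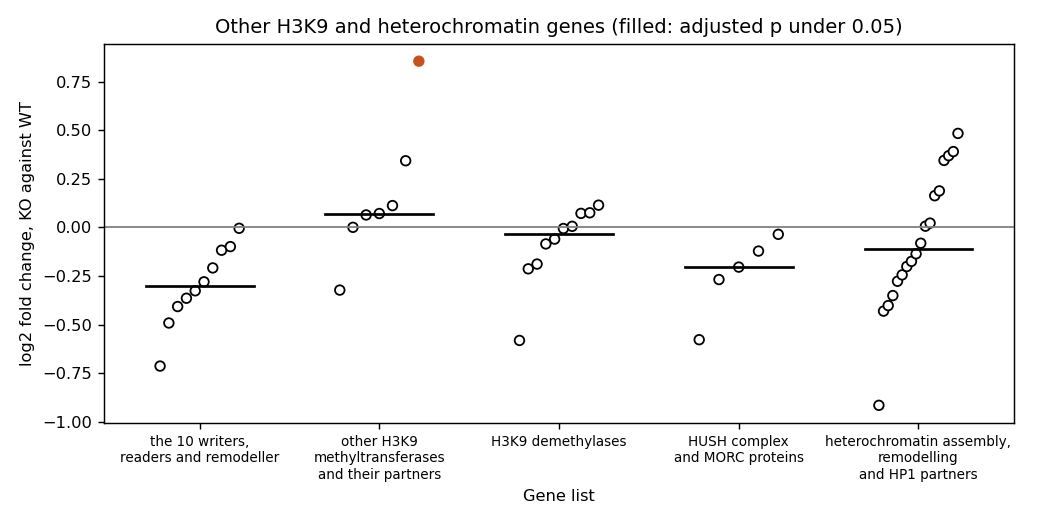
Log2 fold change between KO and WT for the 10 genes and for the tested genes of each further group, 1 point per gene, with the group's median as a line. Only *Prdm16*, filled, passed the adjusted threshold. The 10 genes lie at or below 0 with a median of -0.30, and the demethylases are centred on -0.03.

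Genes of other cell types moved with the genotype. All 10 astrocyte markers rose in KO (edgeR), and their summed level was 234 to 243 CPM in WT and 3867 to 4071 CPM in KO, with *Gfap* at 0 counts in both WT libraries. Of 6 mural cell markers, all 6 were above 0 and 5 were called higher. Their sums were 48.3 to 52.7 CPM in WT and 313 to 321 CPM in KO, with *Acta2* at 0 counts in both WT libraries. Of 10 oligodendrocyte lineage markers, all 10 were above 0 and 5 were called higher (1411 to 1490 CPM in WT, 2147 to 2204 CPM in KO). The radial glia and microglia lists each had 1 gene called higher, of 7 and 6 tested. Of the 10 markers of GABAergic and *Hmx3*-lineage neurons none was called with edgeR, 4 had an unadjusted p under 0.05, and all were below 0, with a median of -0.31 and sums of 3725 to 3895 CPM in WT and 2793 to 2888 CPM in KO. The endothelial list had 0 of 5 genes called, with 3 at an unadjusted p under 0.05. The 10 H3K9 genes summed to 1991 and 2010 CPM in WT and to 1678 and 1676 CPM in KO. As a ratio to the neuronal sum they were at 0.511 and 0.539 in WT and at 0.601 and 0.58 in KO. These sums follow the most abundant genes, and 5 of the 10 genes, *Suv39h2*, *Cbx3*, *Cbx1*, *Cbx5* and *Trim28*, had log2 fold changes below the median of the neuronal markers. The part of the other cell types in these differences was not tested.

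**Figure D5:**
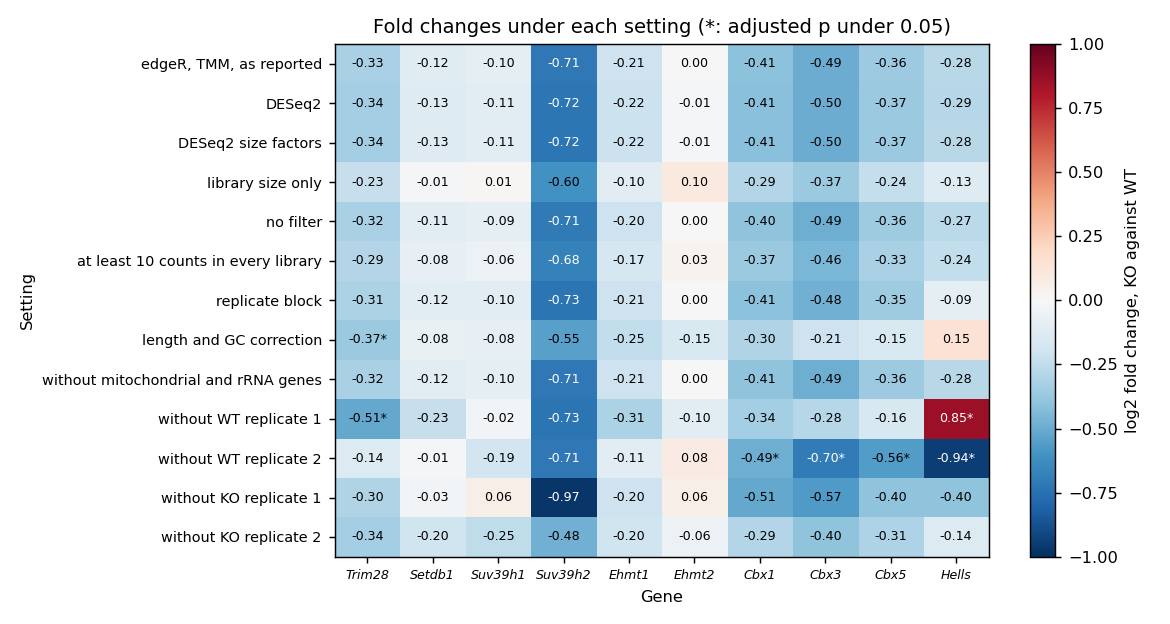
Log2 fold change of each gene under each setting, with blue for lower and red for higher in KO and an asterisk for an adjusted p under 0.05. *Suv39h2*, *Cbx1*, *Cbx3*, *Cbx5*, *Trim28*, *Setdb1* and *Ehmt1* are negative throughout, and *Hells* ranges from -0.94 to 0.85 with the WT library left out.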

How the data were processed

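The deposited values are whole-number counts of reads on each Ensembl gene, made by the authors without normalization. The submitters' processing notes name CASAVA 1.8.2, STAR 2.5.2a and featureCounts 1.5.0-p1 with the builds mm10 and GRCm38. Annotation, strand setting and handling of reads with several matches are not given in the sources used here, so reads of overlapping antisense genes may be mixed.

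Of 55573 identifiers, 55480 were matched to GENCODE M21, where *Tasor* is listed as *Fam208a*. Counts were filtered with edgeR's expression filter, scaled with TMM factors and tested for genotype by edgeR's quasi-likelihood method, run with R 4.3.3, limma 3.58.1 and edgeR 4.0.16. Benjamini-Hochberg adjustment covered all genes tested. Promoter windows were from RefSeq. Fits were tested on simulated data. Genes and lists were chosen with earlier results of these data known. All 10 genes were named, with *Dnmt1*, called genes of the further list and its 3 largest changes in each direction, and other listed genes where counts needed them. *Uhrf1*, *Uhrf2* and single marker genes were named outside this rule, as background or examples.

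Alternatives were DESeq2 1.42.0, its size factors, library size only, no filter, a minimum of 10 counts per library, a block for the replicate number, removal of mitochondrial and rRNA genes, each library left out, and a loess correction (span 0.3, prior count 2) for gene length and GC content.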

Additional observations from a re-analysis of the deposited data

How the results depend on the processing

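Among the 10 genes, 105 of the re-fitted values kept their direction and side of the threshold. *Suv39h1* turned to 0.015 with library size only, and ranged from -0.2516 to 0.0561, the latter without KO replicate 1, with a library left out. *Ehmt2* turned to 0.1003 with library size only, 6e-04 without a filter, 0.0319 with at least 10 counts, 0.0836 without WT replicate 2 and 0.0616 without KO replicate 1, and was at -0.1036 without WT replicate 1, the lowest with a library left out. *Hells* turned to 0.1471 with the length and GC correction and 0.8531 without WT replicate 1, against -0.9408 without WT replicate 2. With library size only, the median of all genes was 0.08 and that of the 10 genes -0.18. The cause of these shifts was not tested.

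Genes called over the whole table numbered 2363 without a filter (1790 higher, 573 lower), 883 with at least 10 counts (831 and 52), 2899 with the correction (1991 and 908) and 1493 with DESeq2 (1246 and 247), against 1233 and 96 as reported. Leaving out a library gave 951 to 4209, and without WT replicate 2 the split turned to 2029 higher and 2180 lower. Of the 10 genes, 1 was called with the correction, and 0 to 4 with a library left out. Of the further list, 4 were called without a filter, 2 with the correction and 0 to 11 with a library left out. With a library left out, the lone library was assumed to vary like the others, so that without a WT library the spread came from the KO pair.

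With a replicate block, 2244 genes were called (1625 higher, 619 lower), 0 of the 10 and 3 of the further list (*Prdm16*, *Kmt5c* and *Lrif1*). Same-numbered libraries deviated together with a correlation of 0.137 across genes, and with 2 pairs they share only a number. *Dnmt1* passed the threshold with the block (adjusted p = 0.0149), DESeq2 (0.00843), DESeq2's size factors (0.0467), no filter (0.00952), the correction (0.000343), removal of mitochondrial and rRNA genes (0.0457) and without either WT library, and not with library size only (0.151), at least 10 counts (0.0739) or without either KO library (0.386 and 0.521).

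*Suv39h2* and *Hells* had the smallest counts, 58 to 205 per library. For *Hells* the gap between the WT libraries was wider than counting error.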

Other observations

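The genes that start next to *Cbx3* and *Cbx5* on the opposite strand are *Hnrnpa2b1*, 466 bases away, and *Hnrnpa1*, 616 bases away, both of which encode RNA-binding proteins. They were chosen by position and lie outside the rule for named genes. By the same position *Slc27a5* lies next to *Trim28* and *C2* next to *Ehmt2*. Both had 2 to 7 counts per library and did not pass the filter on low counts. *Hnrnpa2b1* was at 833 and 413.5 CPM in WT and at 501 and 467 CPM in KO, and *Hnrnpa1* was at 88.6 and 29.6 CPM in WT and at 46.2 and 46.5 CPM in KO. WT replicate 1 was the higher WT library for both neighbours, as it was for *Cbx3* and *Cbx5*, with the KO values of each neighbour in between. The log2 fold changes were -0.36 for *Hnrnpa2b1* (edgeR adjusted p = 0.488) and -0.34 for *Hnrnpa1* (edgeR adjusted p = 0.667).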
